A study of Rattus norvegicus with 12 samples.

Results

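Striatal gene expression 12 h after a single exposure to carbon monoxide (CO) was set against that right after the exposure. The comparison uses 4 of the 12 arrays of the series, chosen by their titles: 1000 ppm CO at 12 h and at 0 h, and 3000 ppm CO at 12 h and at 0 h. The animals were male Sprague-Dawley rats of 235 to 265 g that had breathed the gas for 40 min. The brain was taken under pentobarbital after perfusion with chilled saline, and RNA of both striata of 1 rat was hybridised to a 1-colour Agilent array. Each dose and time is 1 rat, so the rats are paired by dose but not matched otherwise. Every p-value below rests on the spread left after the fitted factors, such as time and dose, and not on replicate rats. Rats at 2 h and 6 h after each dose and 1 rat right after air served as context. The 3 rats at 0, 2 and 6 h after 5% O2 entered only the fits and steps that used all 12 arrays. These steps include the choice of each gene's brightest probe. There is no air rat at 12 h in the comparison, and the labels give no time of day, so hours since exposure and hour of the day cannot be told apart.

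Of 35152 genes or unnamed transcripts on the array, 23629 were well above background on all 4 arrays and were tested, 12209 of them with a gene symbol. Levels are log2 processed intensities minus the 75th percentile of the array, so that 0 marks a spot as bright as that percentile. Levels of different genes are not comparable, but differences between arrays are. Between 72.9% and 78.7% of the spots of an array were well above background and 0 were saturated. The 1000 ppm pair shared slide 2, while the 3000 ppm rat at 0 h was on slide 1 and the one at 12 h on slide 3, scanned on another day. The other arrays of slide 3 were those after 5% O2. Time and slide cannot be told apart in the 3000 ppm pair, and the differences below are therefore given for each dose.

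CO binds hemoglobin and blocks the delivery of oxygen, and the brain answers such a challenge within minutes by transcribing immediate early genes, which need no new protein synthesis and whose mRNAs are short-lived. Some of them encode transcription factors of the AP-1, Egr and Nr4a families, others encode inhibitors that end the signal, and a further group marks blood vessels under stress. The striatum is made up mostly of medium spiny neurons, GABAergic projection neurons that express dopamine receptors, with interneurons, glia and vessels.

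The markers of medium spiny neurons were present on all 4 arrays, and all 17 listed markers were tested. The log2 of their summed linear levels was 9.07 at 0 h and 8.41 at 12 h after 1000 ppm CO, and 8.2 and 8.18 after 3000 ppm CO. Other regions of the brain were represented to different degrees. For the 14 choroid plexus and ependyma markers on the array, 9 of them tested, the log2 summed levels were 2.14 and 7.95 after 1000 ppm CO and 5.55 and 3.23 after 3000 ppm CO, at 0 and 12 h. For the 9 septal and thalamic neuron markers, 7 of them tested, they were 1.62 and 4.33, then 4.58 and 6.01, so both 12 h rats lay above the 0 h rat of their dose. The air rat was at 8.05 for medium spiny neuron markers and at 9.07 for choroid plexus and ependyma markers. The latter was above all 4 values of the CO rats. The part of these markers in the comparisons with air was not tested. In tissue RNA, fewer cells of a type and less RNA per cell cannot be told apart.

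With limma and Benjamini-Hochberg adjustment 0 of 23629 genes (0%) passed an adjusted p of 0.05 in the fit to the 8 CO arrays with time and dose as factors. At an unadjusted p under 0.05 there were 586 genes (2.48%), 345 lower at 12 h (1.46%) and 241 higher (1.02%). The rise or fall of no gene is therefore called in that fit, and genes are described by their values at both doses. Fitted to the 4 arrays alone, limma passed 3 genes, all lower: Ccn1 and Apold1 (adjusted p = 0.0177 for each) and Depp1 (adjusted p = 0.0279). With all 12 arrays, exposure and time as factors, it passed Ccn1, Klf4 and an unnamed transcript.

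The differences of the 2 doses were weakly related. Across the 23629 genes, which are not independent replicates, Pearson's r between the 1000 ppm and the 3000 ppm difference was 0.13 and Spearman's rho 0.142, and 54.4% of genes had the same sign at both doses. The pairs share no array. At least 2-fold differences were found for 502 genes higher and 209 lower at 1000 ppm, and for 407 higher and 758 lower at 3000 ppm. At both doses and in the same direction, 47 genes were at least 2-fold lower at 12 h (0.199% of those tested) and 66 at least 2-fold higher (0.279%). Of each, 36 had a gene symbol (0.295% of the tested genes with a symbol). In opposite directions, 67 genes were at least 2-fold higher at 1000 ppm and lower at 3000 ppm, and 14 the reverse. When arrays were centred on their median instead, the 3000 ppm differences of all genes shifted from a median of 0.03 to 0.18, and the counts were 39 lower and 89 higher.

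**Figure D1:**
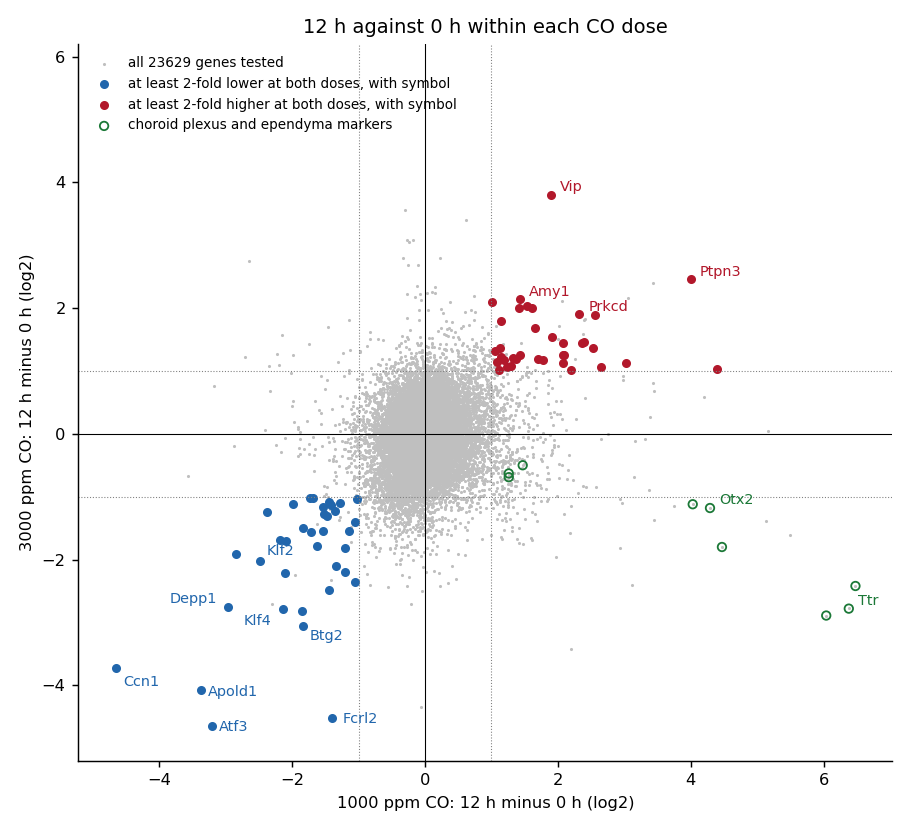
Difference of each gene between 12 h and 0 h (log2) after 1000 ppm CO on the x axis and after 3000 ppm CO on the y axis, 1 rat per dose and time; dotted lines mark 2-fold. The 36 named genes at least 2-fold lower at both doses (blue) reach down to Ccn1, Apold1 and Atf3, the 36 at least 2-fold higher (red) reach up to Vip and Ptpn3, and choroid plexus and ependyma markers (green circles) lie to the lower right, higher at 1000 ppm and lower at 3000 ppm.

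Ccn1 and Apold1, of the vascular early response list, had the largest differences common to both doses. Ccn1 encodes a secreted matrix protein of the CCN family, and its probe lies on chromosome 2 of rn4 from 243824388 to 243824447. Its level was 1.35 at 0 h and −3.32 at 12 h after 1000 ppm CO, and 0.99 and −2.74 after 3000 ppm CO, against −2.83 in the air rat. Both 0 h rats stood far above both 12 h rats, and the 12 h rats lay beside the air rat. The mean difference was −4.20 ± 0.34 (2 rats against 2, SE from the fit to the 8 CO arrays, limma adjusted p = 0.137).

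Apold1, an endothelial early response gene on chromosome 4 (probe from 171907496 to 171907555), followed the same pattern. Its level was 1.77 and −1.60 after 1000 ppm CO and 2.52 and −1.56 after 3000 ppm CO, at 0 and 12 h, and −1.57 in air. Both rats at 12 h lay beside the air rat, and the mean difference was −3.73 ± 0.28 (limma adjusted p = 0.137). Depp1, a target gene of FoxO factors that takes part in autophagy, went from 2.44 to −0.53 and from 2.24 to −0.51, a mean difference of −2.86 ± 0.22 (limma adjusted p = 0.137). It was still above air at 12 h at both doses, by 0.32 and 0.35.

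The flow-responsive transcription factors Klf2 and Klf4 were lower too. Klf4 went from 0.89 to −1.25 at 1000 ppm and from 1.68 to −1.11 at 3000 ppm (mean difference −2.46 ± 0.25, limma adjusted p = 0.248). Klf2 went from −0.08 to −2.58 and from −0.44 to −2.46 (−2.26 ± 0.21, limma adjusted p = 0.218). At 12 h both genes lay below the air rat at both doses, Klf4 by −0.88 and −0.73 and Klf2 by −0.43 and −0.31. Adamts1, a secreted protease, had smaller differences of −1.20 and −2.20. Of the 14 vascular early response genes tested, 11 were lower at both doses (28% of all genes tested) and 1 higher (26.4%). At least 2-fold lower at both doses were 5 (0.199%). The list medians were −1.18 at 1000 ppm and −0.67 at 3000 ppm, against −0.03 and 0.03 over all genes. The 1 gene higher at both doses was Rhob, a small GTPase gene, at 0.09 and 0.88. Edn1, the gene of the vasoconstrictor endothelin, differed between doses, with −1.91 at 1000 ppm and 0.10 at 3000 ppm. Nos3, the endothelial nitric oxide synthase, was near 0 at both doses (−0.04 and −0.17).

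Endothelial and pericyte markers, given for comparison, had medians of −0.06 and −0.37 over the 15 tested. Of these 15, 8 were lower at both doses (28% of all genes) and 2 higher (26.4%). The log2 of their summed levels was 5.08 and 4.90 after 1000 ppm CO and 5.05 and 4.65 after 3000 ppm CO. Their part in the vascular early response was not tested. The marker Cldn5, a tight junction gene, was at −0.22 and −0.32, and Kdr, the receptor for vascular endothelial growth factor, at −0.81 and −0.87. The 2 markers higher at both doses were Slco1a4 (0.13 and 0.42) and Abcb1a (0.40 and 0.16).

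Among immediate early transcription factors, 16 of the 18 tested were lower at 12 h at both doses (28% of all genes) and 0 higher (26.4%). At least 2-fold lower at both doses were 10 of 18 (0.199% of all genes), and 12 of 18 had an unadjusted p under 0.05 for lower (1.46%). The medians were −1.35 and −1.23. This list and its direction were known from earlier results of these data, so the counts are a description.

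Atf3, a stress-induced factor of the ATF family, had the largest difference among them. Its level was −0.25 at 0 h and −3.47 at 12 h after 1000 ppm CO, and 1.5 and −3.15 after 3000 ppm CO, with −2.42 in air. The 12 h rats were below the air rat and the 0 h rats above it, and the mean difference was −3.93 ± 0.47 (limma adjusted p = 0.457). Of the AP-1 subunits, Fos went from 0.02 to −1.84 and from 1.71 to −1.11 (mean −2.34 ± 0.36, limma adjusted p = 0.938), and Fosl2 had differences of −1.20 and −1.82. Fosl1 was lower mainly at 1000 ppm, by −1.75 against −0.16. Junb was at −1.34 and −0.79, whereas Jun was at −0.50 and −0.21 and Jund at −0.12 and 0.59, or 0.19 and 0.82 on a second probe. Fosl2 was lowest in the 1000 ppm rat at 6 h and the 3000 ppm rat at 12 h.

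The Nr4a orphan nuclear receptors were all lower. Nr4a3 went from −0.14 to −2.98 at 1000 ppm and from −0.02 to −1.92 at 3000 ppm, with −0.17 in the air rat, so that it stood at the air level at 0 h and below it at 12 h (mean difference −2.37 ± 0.30, limma adjusted p = 0.47). A second probe of Nr4a3 gave −3.46 and −3.13, and another −0.25 and −1.94. Nr4a1 went from 4.09 to 2.00 and from 4.20 to 2.50, a mean of −1.89 ± 0.33 (limma adjusted p = 0.963), and Nr4a2 had differences of −2.38 and −1.25.

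The Egr zinc finger factors and Arc, which organises glutamate receptors at synapses, follow neuronal activity. Egr2 went from 0.03 to −2.15 and from 0.70 to −0.98, with a mean of −1.93 ± 0.43 (limma adjusted p = 0.963). Egr4 had differences of −1.52 and −1.27, Egr1 of −1.21 and −0.79, Egr3 of −0.66 and −1.13, and Arc of −1.35 and −1.22. In the air rat Egr4 and Arc were at 3.95 and 3.66, beside the 0 h values of 3.89 and 3.60 at 1000 ppm and 3.97 and 3.84 at 3000 ppm. These activity genes were thus near the air level at 0 h and lower at 12 h, unlike Ccn1 and Apold1. The air rat differed from the 0 h rats in tissue markers, as given above. Myc, at −0.03 and 0.89, was the member farthest in the other direction.

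Inhibitors of the MAP kinase pathway were lower in part. Dusp1, a phosphatase that inactivates MAP kinases, went from −0.56 to −2.08 and from 0.08 to −1.46, a mean of −1.54 ± 0.44 (limma adjusted p = 0.963), and both 12 h rats were still above the air rat at −2.27. Spred2, an inhibitor of Ras signalling, was at −1.06 and −2.35, and Dusp5 at −0.62 and −0.87. The lowest of the 8 CO arrays for Spred2 were 1000 ppm at 6 h (−5.14) and 3000 ppm at 12 h (−5.28). On the same arrays the summed septal and thalamic markers were highest, and the part of those markers was not tested. Dusp2 and Dusp8 had opposite signs at the 2 doses (−0.55 and 0.87, −0.26 and 0.51). Of 13 tested, 8 were lower at both doses (28% of all genes) and 1 higher (26.4%), with medians of −0.48 and −0.10.

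In the list of mRNA decay and antiproliferative genes, 6 of 11 were lower at both doses (28% of all genes) and 0 higher (26.4%), and 1 was at least 2-fold lower (0.199%). That gene was Btg2, an antiproliferative gene that promotes mRNA deadenylation, which went from 1.45 to −0.39 and from 3.06 to 0.01 (mean −2.45 ± 0.42, limma adjusted p = 0.963) against −0.21 in air. Zfp36, whose protein sends short-lived mRNAs to decay, was well above background on both 0 h arrays and on neither 12 h array. It was at least 5.60-fold higher at 0 h over both doses, at least 2.78-fold at 1000 ppm and 11.3-fold at 3000 ppm. Its relatives Zfp36l1 and Zfp36l2 were at 0.02 and −0.79, and at 0.11 and −0.37 (0.35 and −1.17 on a second probe of Zfp36l2).

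Promoters were searched for the cAMP response element TGACGTCA, the site of CREB-type factors that drive many immediate early genes, because it is a feature that the choice of genes did not use. The motif reads the same on both strands, and the 250 bases before each RefSeq gene start on GRCr8 were searched. Of the 36 genes at least 2-fold lower at both doses 25 had a promoter in the table, and 6 of 25 (24%) held the motif. It was present in 281 of 9976 promoters of tested genes (2.82%), in 466 of 27457 RefSeq promoters (1.7%), and in 0 of 28 promoters of the genes at least 2-fold higher. Of the immediate early transcription factors, 2 of 11 promoters held it (18.2%), those of Ier2 and of Jund. Jund, at −0.12 and 0.59, is not among the 36, and the part of CREB-type factors was not tested. The 60 bases around each of the 6 matches are shown, with the motif in capitals:
Hs3st2, chr1:185387374-185387433, plus strand: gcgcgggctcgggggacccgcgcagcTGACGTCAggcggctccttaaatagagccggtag
Btg2, chr13:48087858-48087917, minus strand: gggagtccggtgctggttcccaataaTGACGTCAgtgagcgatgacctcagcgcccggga
Dusp1, chr10:17184703-17184762, plus strand: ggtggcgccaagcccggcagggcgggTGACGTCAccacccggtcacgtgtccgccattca
Ier2, chr19:40399281-40399340, plus strand: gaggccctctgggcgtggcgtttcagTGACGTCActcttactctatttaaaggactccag
Zap70, chr9:46485515-46485574, plus strand: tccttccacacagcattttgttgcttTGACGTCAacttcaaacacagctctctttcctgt
Suv39h2, chr17:79665335-79665394, plus strand: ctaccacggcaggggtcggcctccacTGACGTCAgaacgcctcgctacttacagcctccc

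The motif lay between 201 and 56 bases before the start in these genes. Ier2, a nuclear early response protein, went from 2.30 to 0.95 and from 3.06 to 0.94. Zap70, a tyrosine kinase of T cells, had differences of −1.42 and −1.13, and Suv39h2, a histone methyltransferase, of −1.03 and −1.04. Zap70 and Suv39h2 belong to no list and are named after their values were seen. The CArG box, the site of serum response factor, was found in 1 of the 25 promoters (4%), against 1.11% of the promoters of tested genes. It stands in capitals in Egr2, 83 to 74 bases before the start:
Egr2, chr20:21054489-21054550, minus strand: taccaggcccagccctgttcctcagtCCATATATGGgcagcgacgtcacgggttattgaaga

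The arrays at 2 h and 6 h, each of a different rat, give levels between 0 h and 12 h. Of the 36 genes, 13 had covered at least 50% of their 12 h difference in the 2 h rats at both doses. In the 6 h rats, counted on their own, 21 had. Of the 6624 genes lower at both doses, 9.12% and 8.97% had. Adamts1 counts at 2 h but not at 6 h. These counts use the 0 h and 12 h arrays that chose the genes, so they are a description. The rats also differed in tissue markers. Summed medium spiny neuron markers were at 7.16 in the 1000 ppm rat at 6 h, against 9.07 at 0 h and 8.41 at 12 h. In that rat Egr2 and Arc were the lowest of their dose (−2.84 and 1.25), and both were higher at 12 h (−2.15 and 2.25). The part of these markers in the 6 h count was not tested. Ccn1 was already at −2.59 and −3.38 at 2 h, and Apold1 at −0.97 and −0.88. Nr4a3 was lower in each later rat, at −0.63 and −0.60 at 2 h, −1.84 and −1.84 at 6 h, and −2.98 and −1.92 at 12 h. At 12 h, 30 of the 36 genes were below the air rat at both doses (67.6% of the 6624), and at 0 h 19 of 36 were at or above it at both (40.8%).

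A few of the lower genes were low at 12 h alone. Only Hs3st2 and Cd93 among the 36, and 4 of all 23629 genes, were at least 2-fold below both the 2 h and the 6 h rat at both doses. Hs3st2 encodes a heparan sulfate sulfotransferase of neurons, with its probe on chromosome 1 from 180324491 to 180324550. Its levels at 0, 2, 6 and 12 h were 0.16, −0.71, −0.43 and −1.95 after 1000 ppm CO and −0.00, 1.35, 0.36 and −2.21 after 3000 ppm CO, with 0.44 in air. The mean difference was −2.16 ± 0.57 (limma adjusted p = 0.963), and the 12 h rats were the lowest 2 of the 9.

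Cd93, a lectin receptor of endothelium named here after its values were seen, was at 1.19, 1.11, 0.69 and −0.44 after 1000 ppm CO and 1.63, 1.90, 1.29 and −0.15 after 3000 ppm CO. Its mean difference was −1.71 ± 0.20 (limma adjusted p = 0.452), and it was below air by −1.85 and −1.56 at 12 h. Gja5, a connexin of arterial endothelium also chosen after its values were seen, was at −2.97 and −4.68 and at −3.16 and −4.72, a mean of −1.63 ± 0.26 (limma adjusted p = 0.963). Neither gene stood above air at 0 h after 1000 ppm CO.

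**Figure D2:**
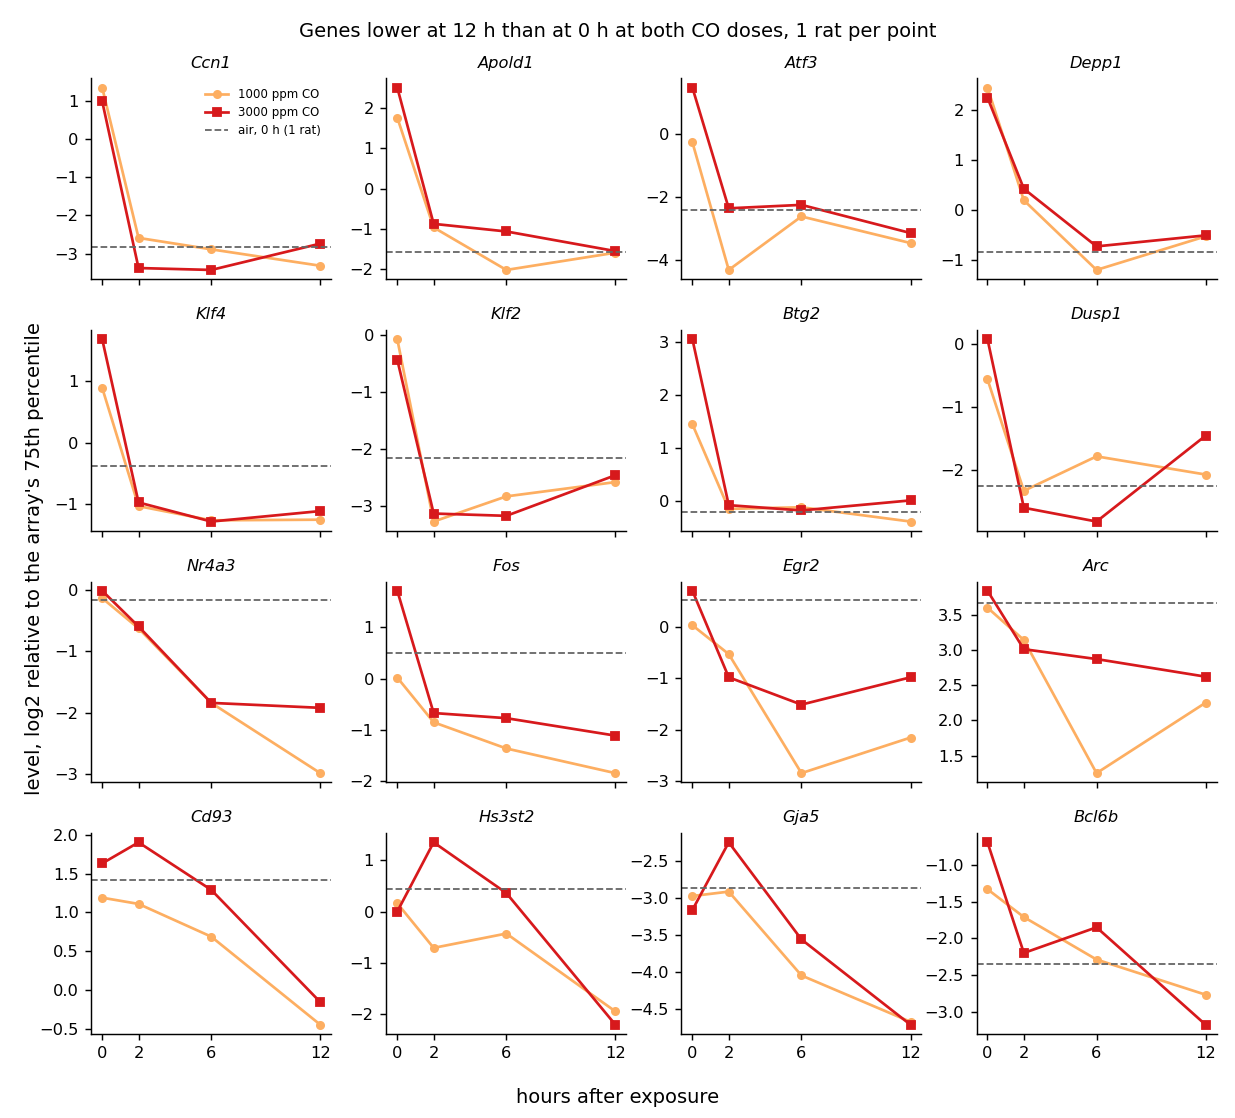
Level (log2 relative to the 75th percentile of the array) of 16 genes lower at 12 h at both doses, against hours after exposure, 1 rat per point; orange circles are 1000 ppm CO, red squares 3000 ppm CO, the dashed line the air rat. Ccn1, Apold1, Klf2, Klf4 and Btg2 were down by 2 h, Nr4a3 and Fos declined further, and Cd93 and Hs3st2 were lowest at 12 h.

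Several genes that were lower at 12 h were higher in the 2 h rat than in the 0 h rat after 3000 ppm CO, and apart from Nr4a2 they are named after their values were seen. Against 0 h of that dose, Ccn3, a matrix protein gene of the CCN family, was at 2.63 at 2 h and −1.02 at 12 h. Prss12, a synaptic protease gene, was at 2.20 and −1.11, Nptx1, a neuronal pentraxin, at 1.60 and −1.09, and Nr4a2 at 1.38 and −1.25. After 1000 ppm CO the 4 genes were at −0.87, −0.55, −0.77 and −1.29 at 2 h. Cortical neuron markers moved in the same rats. The log2 of the summed levels of the 8 markers on the array is given at 0, 2, 6 and 12 h. It was 1.18, 2.95, 2.49 and 1.78 in the 3000 ppm rats and 2.31, 1.88, 1.09 and 1.18 in the 1000 ppm rats. The median levels of the 7 tested were −3.52, −0.52, −1.37 and −3.54, and −1.86, −2.27, −3.15 and −3.92. After 3000 ppm CO the sum was thus higher at 12 h than at 0 h, but the median was not. Slc17a7 of that list went from −2.25 to 0.50 there. Emx1 of that list was not above background on any of the 4 arrays at 0 and 12 h. The part of these markers in the result was not tested.

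The other lower genes, also named after their values were seen, belong to no list. Fcrl2, an Fc receptor-like gene, had the most unequal differences, −1.40 at 1000 ppm and −4.52 at 3000 ppm. Pde1a, a calcium-dependent phosphodiesterase, was at −1.84 and −1.5, Bcl6b, a transcriptional repressor, at −1.44 and −2.49, Tacr3, the neurokinin B receptor, at −1.48 and −1.30, and Scn11a, a sodium channel, at −1.74 and −1.02. Ccdc42, Dmtf1 and Tcim complete the 36. For Dmtf1 other probes were under 2-fold, at −0.23 and −0.55 and at −0.42 and −0.41. Of the 36 lower genes, 4 (Fosl2, Ccdc42, Dmtf1 and Spred2) had 1000 ppm at 6 h and 3000 ppm at 12 h as their 2 lowest CO arrays, against 14.8% of all genes. This count also uses the 12 h arrays that chose the genes, so it is a description.

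The 36 named genes at least 2-fold higher at both doses were set apart by which arrays were high. In 31 of 36 the 2 highest of the 8 CO arrays were 1000 ppm CO at 6 h and 3000 ppm CO at 12 h, against 14.6% of all genes tested. In 32 of 36 the 1000 ppm rat at 6 h was above the one at 12 h (47% of all genes), and in 21 of 36 both 2 h rats were below the 0 h rat of their dose (22.2%). None of the 36 (0) was at least 2-fold above both the 2 h and 6 h rats at both doses, and 1 of all genes tested was. These counts use the 0 h and 12 h arrays that chose the genes. That choice itself favours 3000 ppm CO at 12 h among the highest arrays, so the counts are a description.

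Septal and thalamic neuron markers, summed, had the same 2 highest arrays, and 4 of the 7 tested had them singly (14.6% of all genes). The log2 of the summed levels of all 9 was 1.62, 1.26, 5.92 and 4.33 in the 1000 ppm rats at 0, 2, 6 and 12 h, and 4.58, 1.68, 1.5 and 6.01 in the 3000 ppm rats, with 4.65 in air. Of 7 tested, 4 were higher at both doses (26.4% of all genes) and 3 at least 2-fold (0.279%): Slc17a6, a vesicular glutamate transporter, Tcf7l2, a transcription factor of thalamic neurons, and Prkcd, protein kinase C delta. These 3 are themselves among the 36 higher genes, so the shared pattern is in part that of the same genes. The level of Slc17a6 at 0 and 12 h was −1.71 and 2.69 in the 1000 ppm pair, against 2.87 and 3.90 in the 3000 ppm pair, with 2.97 in air. The other defining markers were not uniformly higher, with Gbx2 at 0.46 and −0.10 and Zic1 at 1.75 and −0.44. With arrays centred on the median 6 of 7 were higher at both doses. The part of these markers in the 36 genes was not tested.

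Among the 12 higher genes with the largest common difference, Vip, which encodes vasoactive intestinal peptide (probe on chromosome 1 from 36369392 to 36369451), was at −0.78 and 1.1 after 1000 ppm CO and 0.27 and 4.07 after 3000 ppm CO, with 1.41 in air. The 1000 ppm rat at 12 h was still below the air rat. The mean difference was 2.84 ± 1.30 (limma adjusted p = 0.963). Prkcd went from 0.95 to 3.27 and from 3.39 to 5.29, and the 12 h value at 1000 ppm did not exceed the 0 h value at 3000 ppm. Ptpn3, a tyrosine phosphatase, had differences of 4.00 and 2.46 on its brightest probe and 0.33 and 0.59 on a second, so its size is uncertain.

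Several of the others encode receptors or adhesion proteins. Chrna4, a nicotinic acetylcholine receptor subunit, was at 1.91 and 1.54, Adra1b, an adrenergic receptor, at 1.53 and 2.04, Ramp3, a partner of calcitonin-type receptors, at 1.66 and 1.68, and Ntng1, a netrin-type axon guidance protein, at 2.40 and 1.46 (0.72 and 0.40 on a second probe). Mybpc1, Kdf1, Ccdc136 and Mgarp ranged from 1.44 to 2.56 on their brightest probes. Other probes of Ccdc136 gave 1.40 and 0.99, and 0.49 and 0.34. For all of these genes, Vip, Prkcd and Ptpn3 included, the limma adjusted p was 0.963, and the mean differences of Chrna4 and Adra1b were 1.73 ± 1.28 and 1.78 ± 1.27 (SE). With slide as a fixed factor in the fit to all 12 arrays the same 11 genes had 12 h differences between 0.21 (Adra1b) and 1.86 (Ptpn3), and Vip was at 0.73. In that fit the 12 lower genes with the largest common difference lay between −4.68 (Ccn1) and −1.46 (Egr2).

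**Figure D3:**
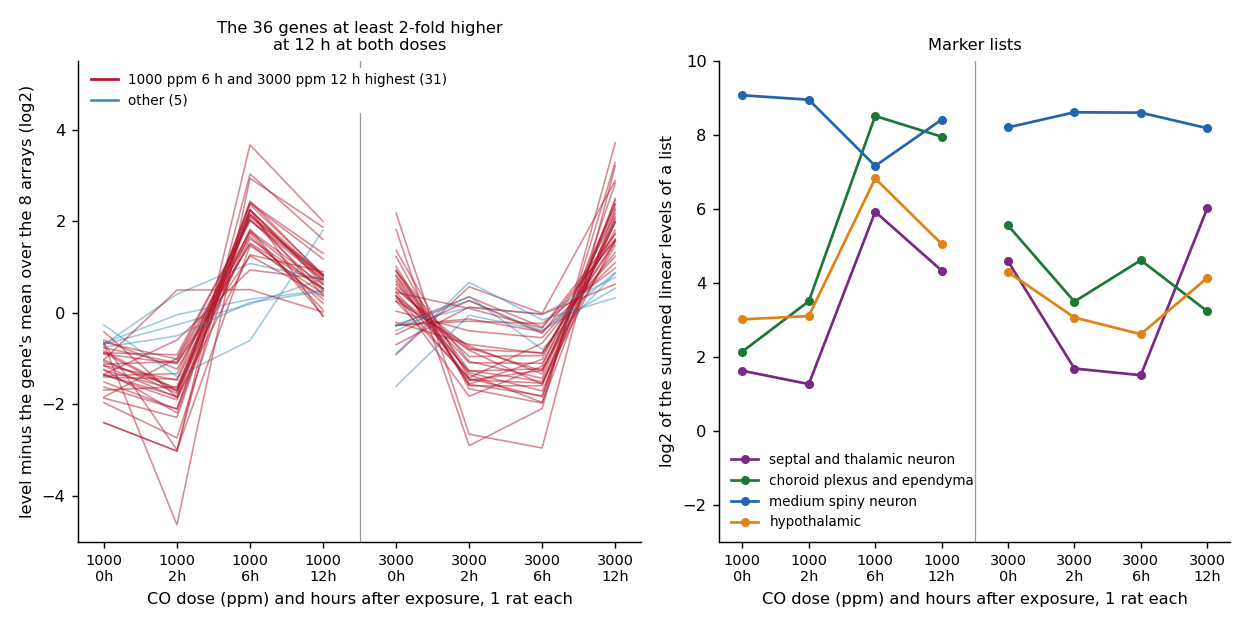
Left, level of each of the 36 higher genes minus its mean over the 8 CO arrays (log2), by dose and hours, 1 rat per position and lines joined within a dose; 31 genes (red) have 1000 ppm CO at 6 h and 3000 ppm CO at 12 h as their 2 highest arrays, 5 (blue) do not. Right, log2 of the summed linear levels of 4 marker lists on the same arrays; septal and thalamic markers are highest on the same 2 arrays, at 5.92 and 6.01, whereas choroid plexus and ependyma markers are highest at 6 h and 12 h after 1000 ppm CO.

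The 5 genes outside that pattern were Amy1, Pla2g3, Cytl1, Fmo2 and an unnamed locus (LOC682708), and apart from Amy1 they are named after their values were seen. Amy1, an alpha-amylase gene (probe on chromosome 2 from 209553111 to 209553263), was at −3.69, −2.59, −1.92 and −2.26 after 1000 ppm CO and −4.60, −3.05, −3.38 and −2.46 after 3000 ppm CO, at 0, 2, 6 and 12 h. All later rats were thus above both 0 h rats and above the air rat at −3.81. The mean difference was 1.79 ± 0.32 (limma adjusted p = 0.963), but 0.96 with normexp background correction and 0.65 with slide as a fixed factor. Pla2g3, a secreted phospholipase, had differences of 1.43 and 1.25 (1.03 and 0.76 on a second probe), Cytl1, a cytokine-like protein, of 1.14 and 1.22, and Fmo2, a flavin monooxygenase, of 2.07 and 1.13.

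The other named genes of the 36, listed after their values were seen, all had the 1000 ppm rat at 6 h and the 3000 ppm rat at 12 h as their highest. They were the ion channel genes Cacna1g, Kcnc2 and Scn7a, the signalling genes Plcb4, Adcy8, Adra1d, Gpr132, Mlnr and Ppm1j, the activity-regulated gene Nrn1 (1.42 and 2.00), the transcription factor Irx2, and Cpne9, Pigz, Cidea, Epn3, Slc13a3 and Necab3. A second probe of Cacna1g gave 0.01 and −0.02. Tcf7l2 was at 2.09 and 1.25. Pvalb, also of the 36 and highest on the same arrays, is given with the interneuron markers.

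Some genes were measured at 1 time only, being well above background on both arrays of it and neither of the other. Of the 35152 genes or unnamed transcripts on the array, 158 were such at 0 h, 53 with a symbol, and 77 at 12 h, 26 with a symbol. Most lay near the detection limit: the bound exceeded 2-fold for 26 of the 158 and for 13 of the 77. Bounds are given over both doses, and the dose is named where they were unequal. Among genes with a symbol, the largest at 0 h after Zfp36 were those of Tgif1, a homeobox repressor of TGF-beta signalling (at least 3.53-fold higher at 0 h, but 9.5-fold at 1000 ppm and 1.31-fold at 3000 ppm), Pkhd1l1 (at least 3.40-fold), Or52e8b (at least 3.16-fold) and Myh15 (at least 3.03-fold). At 12 h they included Pik3c2g, a phosphoinositide kinase (at least 5.68-fold higher at 12 h, 3.63-fold at 1000 ppm and 8.89-fold at 3000 ppm), and Or13p9, an olfactory receptor (at least 3.69-fold, but 1.31-fold at 1000 ppm and 10.4-fold at 3000 ppm). Fgf1, a fibroblast growth factor (at least 2.05-fold, 1.48-fold and 2.82-fold by dose), and Cma1, mast cell chymase (at least 1.92-fold, 1.02-fold and 3.62-fold by dose), followed. Pik3c2g was at −6.05 in the air rat and Or13p9 at −7.04, also low. Fgf1 was at −4.02 in air, above both 12 h rats (−4.80 and −4.05). Cma1 was at −4.29 in air, between the 12 h rats (−5.34 at 1000 ppm and −3.69 at 3000 ppm).

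The circadian clock is a transcriptional loop in which Bmal1 and Clock drive the Per, Cry and Nr1d genes and Dbp, whose products feed back on it. Of the 20 clock genes tested, 7 were higher at both doses (26.4% of all genes) and 7 lower (28%), with medians of −0.05 and 0.14, so the list as a whole was not displaced. Per2 was at −0.68 and 0.03 after 1000 ppm CO and at −0.74 and −0.02 after 3000 ppm CO, with −0.77 in air. The 2 doses gave nearly the same values, and the 12 h rats were the highest of the 9. The mean difference of Per2 was 0.72 ± 0.16 (limma adjusted p = 0.963).

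Dbp, a clock output factor, was at 3.23 and 3.98 and at 2.69 and 3.58, a mean of 0.82 ± 0.26, and Bhlhe41, a repressor in the loop, at 4.95 and 5.30 and at 4.75 and 5.38, a mean of 0.49 ± 0.17 (limma adjusted p = 0.963 for each). On these probes the 12 h rats lay above all 0 h rats, the air rat included (2.44 and 4.65). A second probe of Bhlhe41, well above background on all 4 arrays, gave 0.30 at 1000 ppm and −0.72 at 3000 ppm. Per3 was at 1.02 and 0.51, but a second probe gave 0.95 and −0.30. On the other side, Bmal1 was at 1.75 and 0.70 and at 1.33 and 1.06, a mean of −0.66 ± 0.24, and Clock had differences of −0.60 and −1.23 (limma adjusted p = 0.963 for each). Nfil3, a repressor of the Dbp family, went from −0.37 to −1.64 and from −0.19 to −1.30, and was at −1.35 and −1.42 by 2 h. Nr1d1 was at −0.12 and 0.89 and Per1 at −0.20 and 0.14, so the doses differed in sign. The E-box CACGTG, the site of Bmal1 and Clock, was found on either strand in 3 of 17 promoters of the list (17.6%: Tef, Bhlhe40 and Bhlhe41) and in 8.1% of promoters of tested genes. Rora, at 0.73 and 0.70, had 1000 ppm CO at 6 h and 3000 ppm CO at 12 h as its highest arrays. Clock, Cry2, Tef and Csnk1e had them as their lowest.

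**Figure D4:**
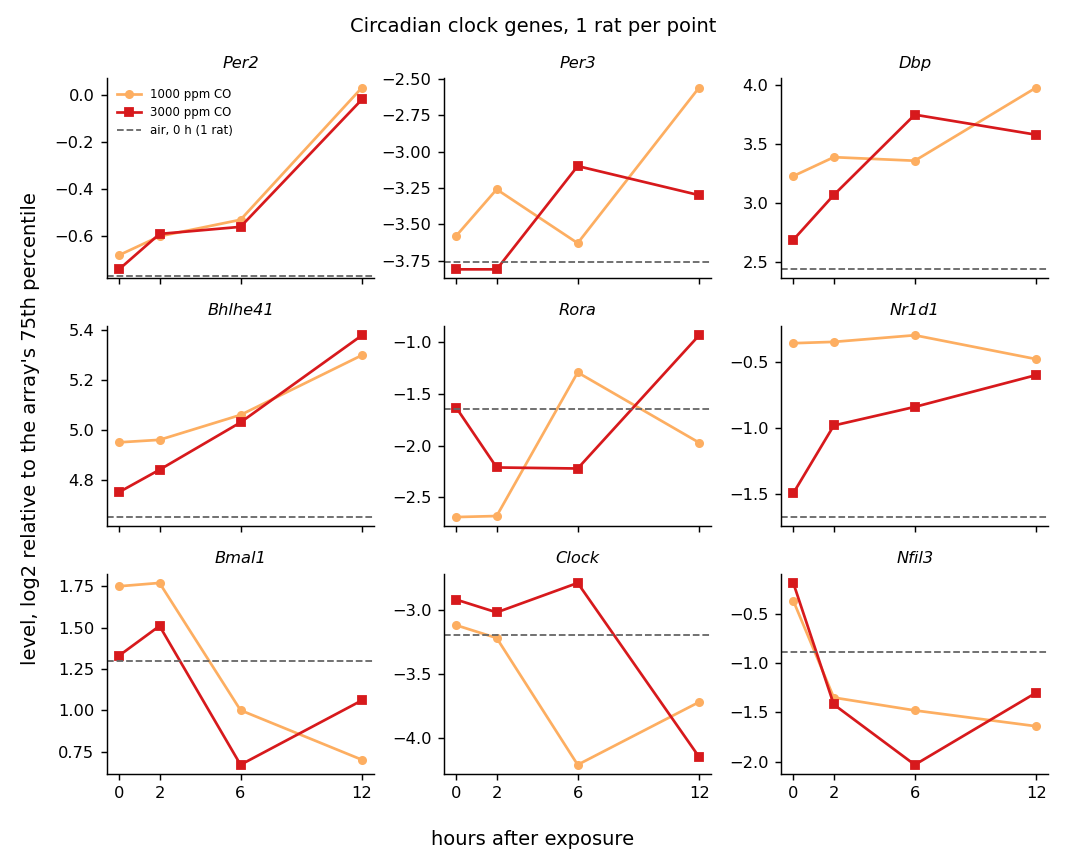
Level (log2 relative to the 75th percentile of the array) of 9 circadian clock genes against hours after exposure, 1 rat per point, with 1000 ppm CO as orange circles, 3000 ppm CO as red squares and the air rat as the dashed line. Per2 and the brightest probe of Bhlhe41 are highest at 12 h at both doses (a second Bhlhe41 probe was at −0.72 after 3000 ppm CO), Bmal1 is lower at 12 h than at 0 h, and Nfil3 is already low at 2 h.

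Stress and oxygen response lists lay near the median of all genes. The 21 hypoxia-inducible genes tested had medians of −0.13 and 0.05, with 8 lower (28% of all genes) and 5 higher (26.4%) at both doses. Ddit4, an inhibitor of mTOR signalling also induced by glucocorticoids, went from 0.38 to −0.21 and from 0.58 to −0.68 (mean −0.92 ± 0.27, limma adjusted p = 0.963). Vegfa was at −0.38 and −1.0, but at −0.35 and −0.44 on a second probe. Its 2 lowest CO arrays were 1000 ppm at 6 h and 3000 ppm at 12 h. Glucocorticoid-responsive genes had medians of −0.11 and 0.14 over 17. Sult1a1, a sulfotransferase, went from −0.75 to 0.71 and from −0.70 to 0.22 (mean 1.19 ± 0.28, limma adjusted p = 0.963), above the air rat at −0.26 at 12 h at both doses. Zbtb16, a zinc finger factor, was at 2.04 after 1000 ppm CO and 0.31 after 3000 ppm CO.

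Heat shock genes had medians of −0.14 and −0.02 over 16. Hspb1, a small heat shock protein, went from 0.58 to −0.34 and from 0.45 to −0.34 (mean −0.85 ± 0.19, limma adjusted p = 0.963), whereas its relative Cryab was higher, at 0.86 and 0.49. Hspa1b, an inducible chaperone, was at 0.40 at 1000 ppm and −2.10 at 3000 ppm. The lists of the unfolded protein and integrated stress response (0.09 and −0.12 over 17), of oxidative stress and heme (0.00 and 0.05 over 22) and of apoptosis and p53 (0.00 and 0.13 over 12) had medians within 0.13 of 0. Hmox1, the heme oxygenase that releases CO, was at −0.17 and −0.06.

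Of 23 inflammatory and NF-kB genes 9 were tested, since 12 on the array failed the background filter, and Il1a, Il6, Tnf, Ccl4, Ccl7, Selp and Sele were not above background on any of the 4 arrays. The 9 had medians of −0.45 and −0.35, with 5 lower (28% of all genes) and 1 higher (26.4%) at both doses. Ccl2, a monocyte chemokine, was at −0.45 and −1.78, and Il1rn, the interleukin receptor antagonist, at 0.21 and 1.05.

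Neuronal receptors were slightly lower. Of 21 glutamate and GABA receptor genes 13 were lower at both doses (28% of all genes) and 0 higher, with medians of −0.43 and −0.37; with arrays centred on the median these were −0.43 and −0.22 with 11 lower, and with the mean over a gene's probes −0.39 and −0.12 with 13 lower. For 8 of 21 the 2 lowest CO arrays were 1000 ppm at 6 h and 3000 ppm at 12 h (14.8% of all genes), Gria1, Grin2b and Grm5 among them, and for 7 of 17 medium spiny neuron markers too. Gria1, an AMPA receptor subunit, went from 1.73 to 1.18 and from 1.21 to 0.64 (mean −0.56 ± 0.21, limma adjusted p = 0.963), and Grm5, a metabotropic receptor, was at −0.86 and −1.48. The 14 delayed neuronal activity genes had medians of −0.44 and 0.12. Medium spiny neuron markers themselves had medians of −0.58 and 0.22, and 7 of 17 were lower at both doses (28% of all genes), among them Adcy5, an adenylyl cyclase, at −0.67 and −0.50. Their part in the receptor values was not tested. Of interneuron markers, Sst, the somatostatin gene, went from 4.65 to 3.72 and from 3.99 to 3.21. Pvalb, the parvalbumin gene, was at 1.30 and 1.08 and is among the 36 higher genes. Its 2 highest CO arrays were 1000 ppm at 6 h (3.06) and 3000 ppm at 12 h (3.77). Summed septal and thalamic markers were highest on the same arrays, and their part was not tested. The medians of the interneuron list were −0.38 and −0.32 over 9.

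Respiratory chain genes lay in the other direction: 13 of 17 were higher at both doses (26.4% of all genes) and 0 lower, with medians of 0.07 and 0.30. The differences were small, and Cox5a, a subunit of cytochrome oxidase, was at 0.28 and 0.36. For 12 of 17, Cox5a included, 1000 ppm at 6 h and 3000 ppm at 12 h were the 2 highest CO arrays (14.6% of all genes). They were also the highest for the summed septal and thalamic markers, whose part was not tested. No member had an unadjusted p under 0.05 in either direction (0 by limma). With arrays centred on the median, the list medians were 0.07 and 0.45, and those of all genes −0.03 and 0.18. Mitotic genes had medians of −0.06 and −0.35 over 11, with 5 lower at both doses (28% of all genes) and 0 higher (26.4%).

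**Figure D5:**
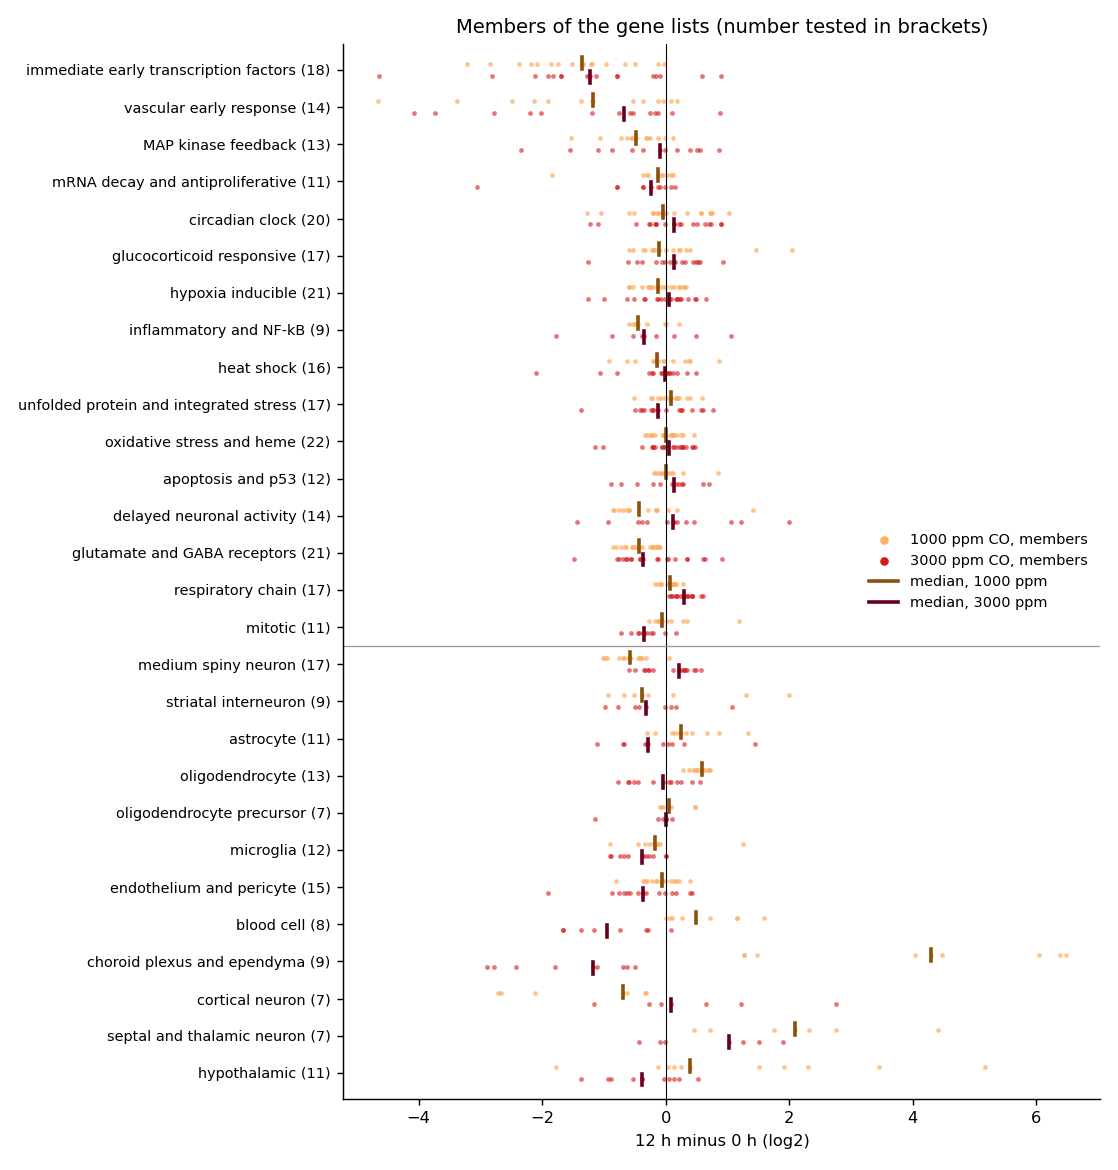
Difference between 12 h and 0 h (log2) of each tested member of the 28 gene lists, with 1000 ppm CO in orange and 3000 ppm CO in red, and vertical bars at the list medians; pathway lists are above the grey line and cell type markers below it. Immediate early and vascular early response genes lie to the left at both doses, septal and thalamic markers to the right, and choroid plexus and ependyma markers split by dose, at 4.29 and −1.18.

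Microglial markers were lower at both doses for 10 of 12 (28% of all genes) and higher for 0, with medians of −0.17 and −0.38, and 9 were lower at both doses with arrays centred on the median. Aif1, a calcium-binding protein of microglia, went from 2.70 to 1.79 and from 2.45 to 1.71 (mean −0.82 ± 0.27, limma adjusted p = 0.963). P2ry12, a purinergic receptor of resting microglia, was at −0.34 and −0.39 and Trem2 at −0.45 and −0.61, while Itgam had opposite signs (1.25 and −0.88). For 8 of 12, P2ry12 and Trem2 included, 1000 ppm at 6 h and 3000 ppm at 12 h were the 2 lowest CO arrays (14.8% of all genes); the part of septal and thalamic tissue markers in this was not tested. Oligodendrocyte markers were higher at 1000 ppm, with a median of 0.58, and at −0.04 at 3000 ppm, 6 of 13 being higher at both doses (26.4% of all genes) and 0 lower (28%). Astrocyte markers had medians of 0.24 and −0.29 over 11, and those of oligodendrocyte precursors 0.05 and 0.00 over 7. Blood cell markers had medians of 0.49 and −0.95 over 8, hypothalamic markers of 0.39 and −0.38 over 11, and cortical neuron markers of −0.70 and 0.09 over 7, so the doses differed in sign for each.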

How the data were processed

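Intensities are those of 1-colour Agilent arrays, deposited by the authors as scanner output of Agilent Feature Extraction 10.7.3.1, per the submitters' processing notes and the file headers. The deposited log2 table of the series correlated with the scanner values at r of at least 0.999904 and is centred on each array's median, and it served as an alternative. Here log2 processed signals were centred on each array's 75th percentile, control and outlier spots were left out, and a gene was its brightest probe over the 12 arrays. Of 41012 probes 21322 were named through a RefSeq table, 19690 kept the name in the file and 14 were dropped. Probe coordinates are on rn4, per the file headers. Genes well above background on all 4 arrays were kept. limma 3.58.1 (R 4.3.3) was fitted to the 8 CO arrays with time and dose, and p-values were adjusted over 23629 genes by the Benjamini-Hochberg method. With 1 rat per dose and time, the spread is that left after both factors (3 residual degrees of freedom).

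The fit was tested on simulated data of 23629 genes for this comparison: of 50 changed genes per size it recovered 4%, 60%, 82% and 92% at log2 changes of 1, 2, 3 and 4, with 7 false among 126 called. Genes were named where at least 2-fold apart in the same direction at both doses (the 12 per direction with the largest smaller difference), as the 5 largest bounds per direction, or as members of 28 lists; others are said to be chosen after their values were seen. Some genes that this rule names are not reported here. A bound sets the mean of the bright arrays against, per array, the higher of the dim probe's signal and the lowest signal among probes well above background. The comparison and the lists were chosen with earlier results of these data known. The counts of genes with 1000 ppm at 6 h and 3000 ppm at 12 h as their highest or lowest CO arrays were added after the values were seen. Promoters are RefSeq sequences on GRCr8. No genome or protein table was used here. Alternatives were background correction, scaling, filters, probe averaging, other sets of arrays, slide as a factor and leaving out each array. Python 3.11.15, numpy 2.4.6, pandas 2.3.3 and matplotlib 3.10.9 were used.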

Additional observations from a re-analysis of the deposited data

Results flagged for a closer look

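For 12 marker genes the 12 h difference had opposite signs at the 2 doses, with 1 rat per dose and time; the difference between doses was not tested for any of them. Of choroid plexus and ependyma markers, Ttr, the transthyretin gene, was at 6.38 after 1000 ppm CO and −2.78 after 3000 ppm CO (log2, 12 h minus 0 h), Sostdc1 at 6.48 and −2.42, Kcnj13 at 6.04 and −2.89, Aqp1, a water channel, at 4.47 and −1.80, Otx2 at 4.29 and −1.18, and Folr1, a folate receptor, at 4.03 and −1.12. Of blood cell markers, the hemoglobin genes Hba-a3, Hbb and Hbb-b1 were at 1.16 and −1.37, 1.59 and −1.66, and 1.16 and −1.67. Of cortical neuron markers, Slc17a7, a vesicular glutamate transporter, was at −2.66 and 2.75 and Neurod2 at −2.71 and 1.22. Avp, the vasopressin gene among the hypothalamic markers, was at 3.45 and −1.37.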

How the results depend on the processing

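Against 0 genes past an adjusted p of 0.05 (586 unadjusted), limma passed 3 with the 4 arrays alone, 3 with all 12 arrays, 2 with slide as a random block and 1 with slide as a fixed factor; Ccn1 was at −4.55 (adjusted p = 0.00419) and −4.68 (adjusted p = 0.0111) in the latter pair. Without each of the 4 arrays in turn the count was between 0 and 0 (284 to 1979 unadjusted). At least 2-fold at both doses, the 66 higher and 47 lower genes became 25 and 25 with normexp background correction, 186 and 204 with no filter, 333 and 320 at 1.5-fold, and 12 and 15 at 3-fold. Centring on the median gave 89 and 39. The cause of these shifts was not tested. The 24 genes with the largest common differences reversed in 0 of 478 gene and setting pairs, but the higher ones ranged widely (Mgarp 0.09 to 3.72, Adra1b 0.21 to 2.90, Prkcd 0.49 to 3.61). Of 196 list medians under settings other than leaving out an array, 17 moved. Without an array the both-dose counts cannot be made. Dose as a factor pairs the rats in the fits to the CO arrays. Beyond dose, no paired analysis was possible because each group holds 1 replicate. With 1 rat per group the simulated fit recovered 4% of changes of 1 on the log2 scale, and genes not well above background have only a bound.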

Other observations

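Of the genes at least 2-fold apart at both doses, some are transcripts with no symbol, and 4 of them are given here after their values were seen. The levels of TC598831 at 0, 2, 6 and 12 h were −4.24, −3.96, −4.06 and −0.80 for 1000 ppm CO, and −3.44, −0.70, −3.79 and −1.05 for 3000 ppm CO. CB327764 was at −2.03, 0.10, −2.16 and 0.03 after 1000 ppm CO and at −2.28, 0.92, −1.47 and −0.16 after 3000 ppm CO, high in both rats at 2 h and at 12 h and low at 0 h and 6 h. The air rat was low for both, at −4.25 and −2.21. XM_213050 was at 0.08, −1.78, −2.30 and −2.22 and at 0.54, −1.96, −2.18 and −2.16, lower by 2 h at both doses, with a mean difference of −2.50 ± 0.21 (limma adjusted p = 0.137). FQ220365 had differences of −1.96 and −2.25 (limma adjusted p = 0.457).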
